A study of Homo sapiens with 6 samples.

Results

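The genes that fold new proteins in the endoplasmic reticulum (ER) and dispose of those that misfold were examined in human melanoma cells with a knockdown of MAP4K5. The set has 36 genes in 6 roles: 8 glucose-regulated chaperones and lectins, 3 J-domain co-chaperones, 9 disulfide isomerases and oxidases, 4 genes of the stress sensors and XBP1, 9 genes of ER-associated degradation (ERAD) and 3 subunits of the SEC61 translocon. The rule that chose them uses gene names and no values, but the set was chosen with earlier results of these data known. A probe set annotated to that one symbol was found for 34 of the 36, among 18132 genes measured. TXNDC5, read only by 2 probe sets that carry several symbols, and SEC61G were not analysed here. Where a gene had several probe sets, the brightest by mean over all arrays was used.

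The cells were A375, an established human melanoma line. In 3 arrays the A375 cells carried a stable short hairpin RNA knockdown of MAP4K5, a germinal centre kinase known to signal to JNK, and 3 arrays held A375 cells without it (control). All were grown in DMEM with serum and antibiotics and no treatment, and total RNA was hybridised to Affymetrix expression arrays. The sources used here do not give the hairpin's sequence, whether the knockdown line is a clone or a pool, or whether a control vector was used. Loss of MAP4K5 therefore cannot be told apart from side effects of the hairpin or of selecting a stable line. The labels call the arrays biological replicates without saying how the cultures were separated, so each p-value reflects only how these arrays varied.

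MAP4K5 read 19.7, 18.8 and 20.3 in the knockdown arrays and 77.7, 78.1 and 76.3 in the control arrays. These and all levels below are RMA intensities on a linear scale. MAP4K5 fell 3.95-fold, or -1.98 ± 0.08 (SE) in log2, at a limma adjusted p of 2.9e-05. The knockdown was as deep against each control, but the controls were not alike over the transcriptome. Control 2 correlated with the knockdown arrays at r = 0.9934 to 0.9939 across genes and with the other controls at 0.9916 and 0.9917, whereas controls 1 and 3 correlated at 0.9966. Genes are not independent replicates, so these correlations only describe the arrays. Results are therefore given with and without control 2. Control 2 was singled out by these same intensities. Calls made without it show how the results depend on that array and are not separate evidence. Of 11 melanoma markers measured, AXL (at least 663.4), MIA (at least 160.3) and MITF (at least 50.6) were bright in every array. S100B (at least 24.7), SOX10 (at least 22.1), TFAP2A (at least 20.0) and NGFR (at least 14.4) also stayed above the median of gene means (8.68). The pigment-cell genes PMEL, MLANA and TYR read at most 3.9, near the lower quartile of gene means (3.06), and S100A1 read 4.4 to 5.7. By limma 1 of the 11 rose, MITF (0.99 in log2), and 3 fell, S100B (-1.31), MIA (-0.85) and SOX10 (-0.54), and their part in the results below was not tested. The 10 epithelial, leukocyte and endothelial markers measured ran from 2.1 to 9.9 in knockdown cells and 1.9 to 7.8 in control cells, VWF being the brightest. By limma 0 of the 10 passed, with 1 at an unadjusted p under 0.05.

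As background, proteins that enter the ER through the SEC61 channel are folded by the Hsp70 chaperone BiP and its J-domain partners, by the lectin chaperones calnexin and calreticulin, and by enzymes that form and reshuffle disulfide bonds. Chains that fail to fold are recognised, drawn back across the membrane, ubiquitinated and degraded by the proteasome, which is ERAD. The sensors IRE1 (ERN1), PERK (EIF2AK3) and ATF6 watch over this balance. When unfolded proteins accumulate, IRE1 splices XBP1 mRNA, ATF6 is cleaved to an active factor, and both switch on chaperone and ERAD genes. PERK slows translation and allows ATF4 to be made, which drives amino acid synthesis genes and, when prolonged, DDIT3. The secretory load of melanoma cells is handled by this same machinery.

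The promoters of these genes are shown because the ER stress response element (ERSE) and its variant ERSE-II are the binding sites through which ATF6 and XBP1 act. Promoter windows from RefSeq (GRCh38.p14), 250 bases before to 50 after a start site, were available for 33 of the 36 genes, not for DERL1, DERL3 or PDIA3. ERSE was searched as CCAAT, any 9 bases and CCACG, and ERSE-II as ATTGG, any 1 base and CCACG, both on both strands and with no mismatch. ERSE was present in 8 of the 33 genes (24.2%), against 0.0916% of all 27305 genes with a window. ERSE-II was present in 3 of the 33 (9.09%), against 0.0696% of all genes. No gene carried exact matches of both, so 11 of the 33 (33.3%) carried one of them, against 0.161% of all genes. Copies with a mismatch were not counted. Each match is written below 5′ to 3′ on the strand that reads the motif, with its fixed letters in capitals and the spacer in lower case.

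SDF2L1: ATTGGtCCACG (chr22:21642114-21642124, ERSE-II)
HYOU1: ATTGGaCCACG (chr11:119057274-119057284, ERSE-II)
HYOU1: ATTGGaCCACG (chr11:119057380-119057390, ERSE-II)
HERPUD1: ATTGGgCCACG (chr16:56932025-56932035, ERSE-II)
CRELD2: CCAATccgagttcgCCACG (chr22:49918554-49918572, ERSE)
PDIA6: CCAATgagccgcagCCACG (chr2:10812853-10812871, ERSE)
CALR: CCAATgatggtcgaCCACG (chr19:12938384-12938402, ERSE)
HSP90B1: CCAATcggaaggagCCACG (chr12:103930216-103930234, ERSE)
HSP90B1: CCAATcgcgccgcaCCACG (chr12:103930321-103930339, ERSE)
CANX: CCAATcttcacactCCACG (chr5:179698778-179698796, ERSE)
ERO1B: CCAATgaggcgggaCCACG (chr1:236282183-236282201, ERSE)
HSPA5: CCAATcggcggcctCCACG (chr9:125241391-125241409, ERSE)
XBP1: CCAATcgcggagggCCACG (chr22:28800603-28800621, ERSE)

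HYOU1 and HSP90B1 each carried 2 exact copies. A match of letters is a description of the window and does not show that a factor binds there. The motifs searched were those already known for this response, so their excess in the set is not a separate finding. The 250 bases before the start site are given for 4 genes that the results turn on, SDF2L1, which rose, HERPUD1 and XBP1, whose control arrays lay furthest apart among the 34, and HSPA5, which encodes BiP. They are written 5′ to 3′ on the strand of the gene. Capitals mark the fixed letters of ERSE or ERSE-II and, in HERPUD1, also an amino acid response element, the site type bound by ATF4 (TGATGNAA, read there on the opposite strand).

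SDF2L1: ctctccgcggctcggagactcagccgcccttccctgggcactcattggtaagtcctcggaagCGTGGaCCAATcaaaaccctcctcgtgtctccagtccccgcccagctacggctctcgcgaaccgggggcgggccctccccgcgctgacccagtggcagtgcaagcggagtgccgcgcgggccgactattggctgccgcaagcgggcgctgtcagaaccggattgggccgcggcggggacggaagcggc (chr22:21642052-21642301, plus strand)
HERPUD1: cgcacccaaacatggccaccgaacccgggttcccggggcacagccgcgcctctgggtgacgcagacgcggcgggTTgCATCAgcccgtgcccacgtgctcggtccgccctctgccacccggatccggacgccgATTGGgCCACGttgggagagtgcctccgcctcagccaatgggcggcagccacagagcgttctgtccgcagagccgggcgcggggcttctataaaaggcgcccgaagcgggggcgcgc (chr16:56931892-56932141, plus strand)
XBP1: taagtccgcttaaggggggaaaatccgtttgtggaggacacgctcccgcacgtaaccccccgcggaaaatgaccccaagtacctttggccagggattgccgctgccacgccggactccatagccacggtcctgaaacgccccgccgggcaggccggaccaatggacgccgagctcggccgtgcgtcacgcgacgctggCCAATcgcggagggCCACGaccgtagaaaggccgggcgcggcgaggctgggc (chr22:28800570-28800819, minus strand)
HSPA5: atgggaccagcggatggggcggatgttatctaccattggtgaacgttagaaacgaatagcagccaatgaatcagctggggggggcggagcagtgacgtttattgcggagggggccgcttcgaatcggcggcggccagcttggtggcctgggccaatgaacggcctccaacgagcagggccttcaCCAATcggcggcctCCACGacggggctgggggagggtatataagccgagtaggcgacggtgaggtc (chr9:125241344-125241593, minus strand)

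Of the 33 genes HERPUD1 alone carried the amino acid response element (3.03%), against 4.46% of all genes with a window. The third motif tied to this response, the unfolded protein response element TGACGTGG, stood in HYOU1, TXNDC11 and TXNDC5 (9.09%), against 0.927% of all genes. In HYOU1 it overlapped an ERSE-II copy.

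The set as a whole took no common direction in knockdown cells. Of the 34 genes measured, 1 rose (SDF2L1) and 0 fell at a limma adjusted p under 0.05, while 7.83% of all genes passed that test (3.70% higher and 4.13% lower). An unadjusted limma p under 0.05 was reached by 7 of the 34 (20.6%), against 23.5% of all genes. The median log2 fold change of the set was 0.01, the same as the median of all genes, with 18 genes above 0 and 16 below (52.9% above 0, against 52.7% of all genes). It ranged from -0.83 for HERPUD1 to 0.77 for SDF2L1. A change of at least 0.5 in either direction was seen in 3 of the 34 (SDF2L1, XBP1 and HERPUD1; 8.82%), against 7.57% of all genes. The 3 knockdown arrays and the 3 control arrays did not overlap in 7 of the 34 (SDF2L1, P4HB, XBP1, EDEM2, SYVN1, DERL2 and SEC61B; 20.6%), against 28.1% of all genes. For 22 of the 34 the 95% interval of the difference lay within 0.5 of 0 on the log2 scale (64.7%, against 74.3% of all genes), so larger differences are outside the interval for these genes and inside it for the other 12.

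**Figure D1:**
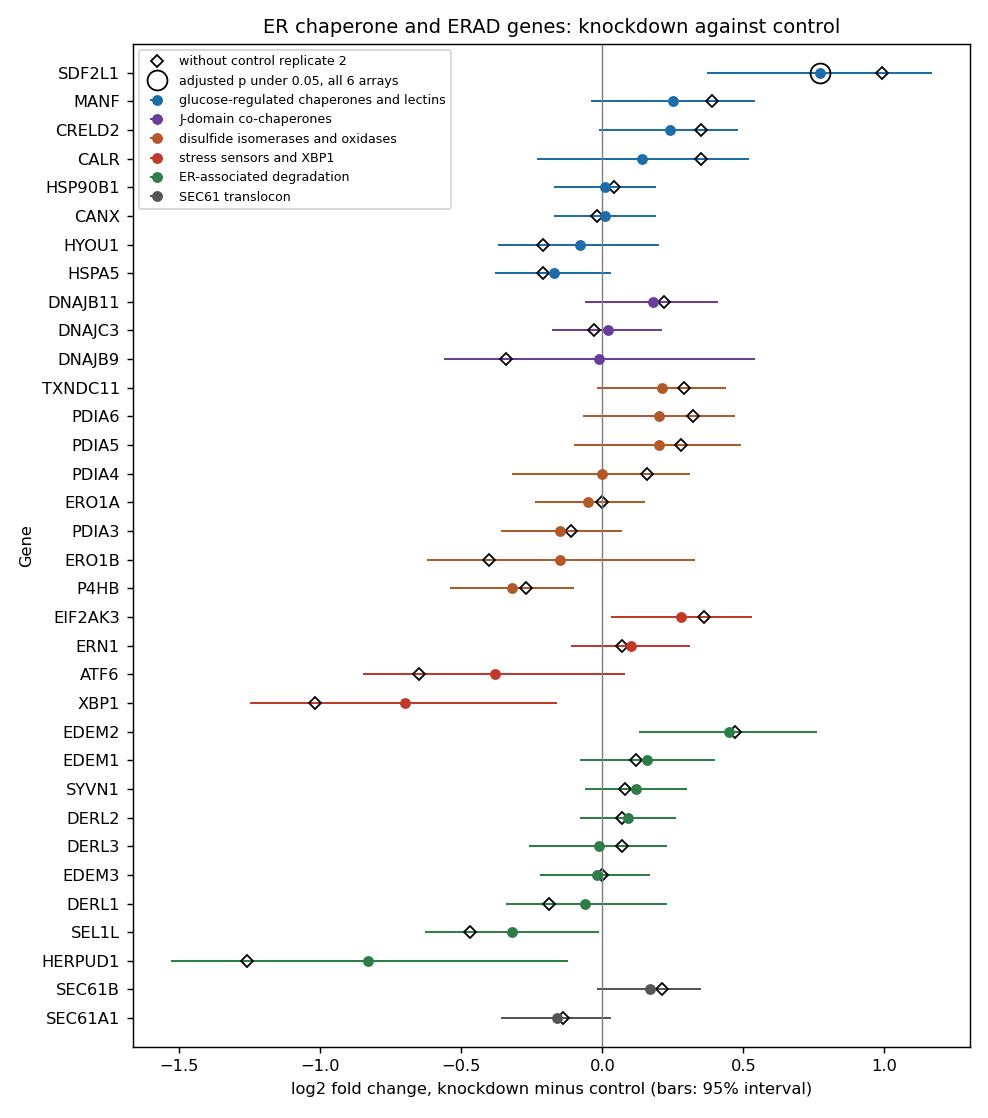
Log2 fold change (knockdown minus control) of the 34 measured genes on the x axis, grouped by role and coloured accordingly, with bars for the 95% interval of the limma fit over 3 knockdown and 3 control arrays. The open circle marks SDF2L1, the 1 gene past an adjusted p of 0.05, and open diamonds give the value without control 2, which lies at -1.26 for HERPUD1, -1.02 for XBP1 and 0.99 for SDF2L1.

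Among the chaperones and lectins, the stress-inducible SDF2L1 stood at a higher level in knockdown cells while the other 7 genes did not pass the test. The role held 1 gene that rose and 0 that fell of 8, against 3.70% and 4.13% of all genes. Its median log2 fold change was 0.08. SDF2L1, an ER protein that works with BiP's J-domain partner DNAJB11 to keep unfolded chains soluble, read 102.3, 94.2 and 90.2 in knockdown cells and 46.1, 75.7 and 50.1 in control cells. All 3 knockdown arrays lay above all 3 controls, and control 2 was the nearest to them. SDF2L1 averaged 95.6 ± 6.2 in knockdown cells and 57.3 ± 16 in control cells (SD, n = 3 each). The rise was 1.71-fold, a log2 fold change of 0.77 ± 0.17 (SE, 95% interval 0.37 to 1.17) with a limma adjusted p of 0.0345. Over 17 alternative settings the log2 fold change stayed between 0.63 and 0.99, 11 settings called it and the limma adjusted p ran from 0.000308 to 0.145. The call was lost whenever an array other than control 2 was left out. It rests on 1 probe set.

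HSPA5 encodes BiP, the central Hsp70 of the ER and the usual readout of ER stress. It read 1191, 1075 and 1035 in knockdown cells and 1282, 1169 and 1264 in control cells. The groups overlapped, because the first knockdown array lay above control 2. HSPA5 averaged 1100 ± 81.3 in knockdown cells and 1238 ± 60.6 in control cells (SD, n = 3 each), a log2 fold change of -0.17 ± 0.09 (SE, limma adjusted p = 0.296). Its 95% interval, -0.38 to 0.03, holds no increase above 0.03. All 6 HSPA5 probe sets, which are not independent readings, lay below 0, from -0.44 to -0.17, and none passed the test. In several of the dimmer ones knockdown 3 lay well below the other knockdown arrays. One read 83.7, 83.7 and 42.6 in knockdown cells and 113.3, 83.5 and 72.6 in control cells.

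HSP90B1, the ER Hsp90 known as GRP94, read 1677, 1594 and 1692 in knockdown cells and 1601, 1702 and 1622 in control cells. Its log2 fold change was 0.01 (95% interval -0.17 to 0.19), and the groups overlapped. CANX, the membrane-bound lectin calnexin, read 861.3, 864.6 and 871.4 in knockdown cells and 861.2, 823.6 and 897.7 in control cells. Its log2 fold change was also 0.01 with the same interval, and the 3 knockdown arrays lay within the range of the controls. HYOU1, the nucleotide exchange factor of BiP, whose window held 2 ERSE-II copies, gave -0.08 (95% interval -0.37 to 0.20).

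In the other 3 genes of the role, as in SDF2L1 and HSP90B1, control 2 was the highest control. MANF, a small stress-induced protein that binds BiP and can be secreted, read 448.5, 431.8 and 470.9 in knockdown cells and 326.3, 457.3 and 363.1 in control cells. CRELD2, an ER-resident protein induced by ER stress, read 99.7, 97.0 and 96.5 in knockdown cells and 75.6, 97.1 and 77.7 in control cells. CALR, the soluble lectin calreticulin, read 21.3, 23.0 and 24.4 in knockdown cells and 17.7, 27.5 and 18.3 in control cells. In all 3 genes the knockdown arrays lay above controls 1 and 3, and control 2 lay among or above them. The log2 fold changes were 0.25 for MANF, 0.24 for CRELD2 and 0.14 for CALR, and none passed the test. All 3 passed it without control 2, at 0.39, 0.35 and 0.35.

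**Figure D2:**
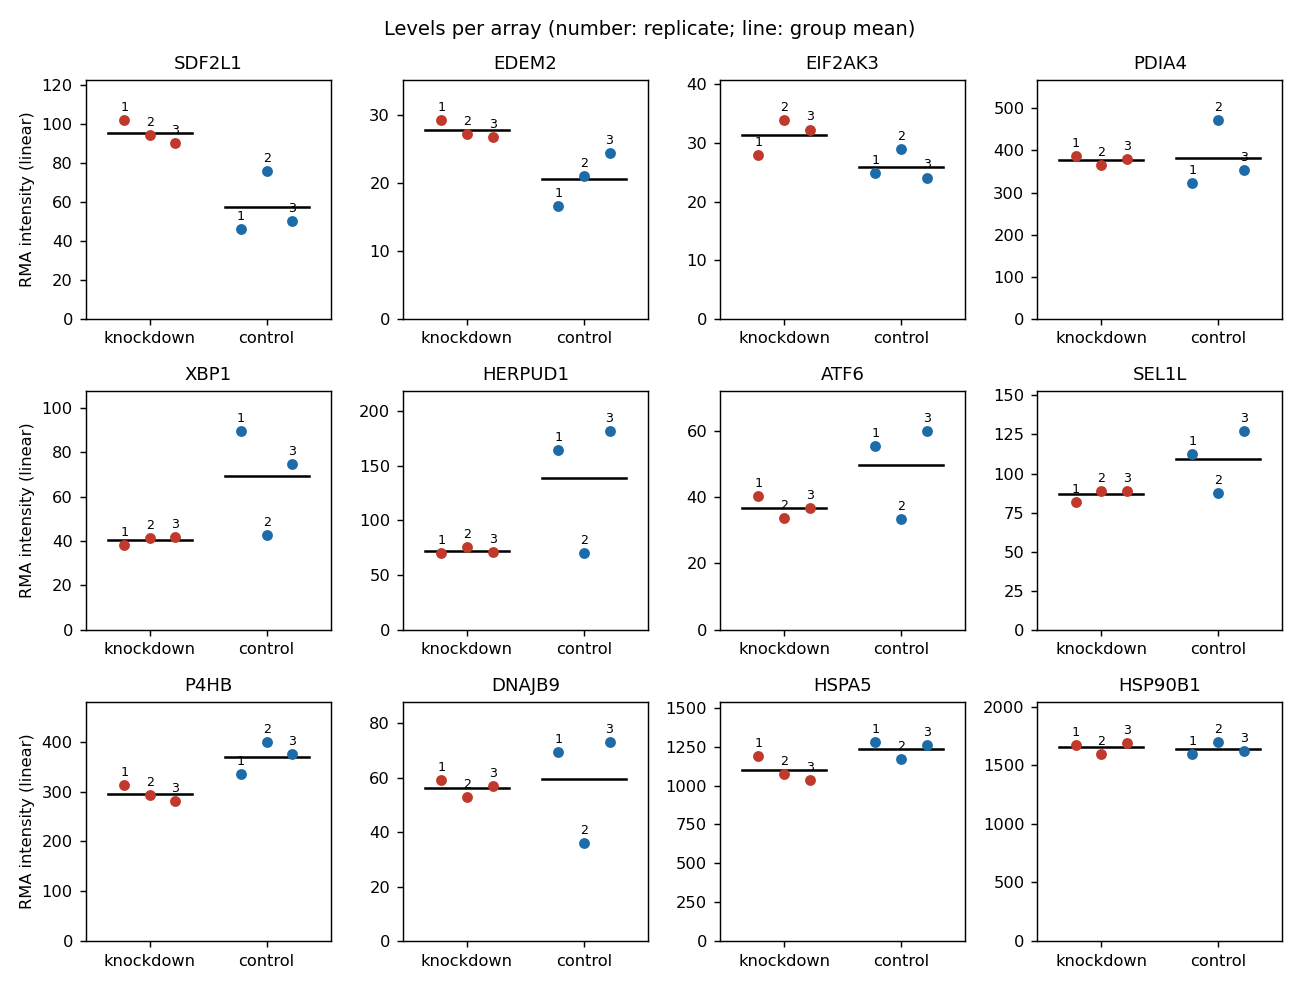
RMA intensity (y axis, linear and starting at 0) of selected genes in each array, with knockdown arrays left of control arrays, array numbers beside the points and a line at each group mean. The knockdown arrays of HERPUD1 sit between 70.5 and 75.5, next to control 2 (70.6) and below controls 1 and 3 (164.1 and 182.0), whereas those of SDF2L1 sit at 90.2 or more, above all controls.

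Of the 3 J-domain co-chaperones, which deliver clients to BiP and stimulate its ATPase, 0 passed the limma test, against 7.83% of all genes. An unadjusted limma p under 0.05 was reached by 0, against 23.5% of all genes. The median log2 fold change of the 3 was 0.02. DNAJB9, an IRE1 target that helps clear misfolded proteins and holds IRE1 inactive, read 59.1, 53.0 and 57.0 in knockdown cells and 69.3, 35.9 and 73.2 in control cells. The knockdown arrays lay between control 2, the lowest array of all, and the other controls. Its log2 fold change was therefore close to 0 on average (-0.01, 95% interval -0.56 to 0.54) and -0.34 without control 2, where it passed the test. DNAJB11, which binds unfolded chains together with BiP, read 115.8, 103.3 and 111.2 in knockdown cells and 85.4, 103.4 and 104.2 in control cells, a log2 fold change of 0.18. DNAJC3, a co-chaperone also described as an inhibitor of PERK, read 57.0, 54.2 and 55.8 in knockdown cells and 54.0, 51.6 and 59.5 in control cells, a log2 fold change of 0.02. The groups overlapped in both genes.

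Of the 8 measured disulfide isomerases and oxidases, 0 rose and 0 fell by limma. An unadjusted limma p under 0.05 was reached by 1 (12.5%), against 23.5% of all genes. The median log2 fold change of the 8 was -0.02, with a range of -0.32 to 0.21. The lowest was P4HB, which encodes protein disulfide isomerase itself and the beta subunit of collagen prolyl 4-hydroxylase. P4HB read 313.7, 292.8 and 280.3 in knockdown cells and 335.1, 400.1 and 376.1 in control cells. All knockdown arrays lay below all controls, and unlike in most of the set control 2 was the array furthest from them. P4HB averaged 295.6 ± 16.9 in knockdown cells and 370.4 ± 32.8 in control cells (SD, n = 3 each). The log2 fold change of -0.32 ± 0.10 (SE, 95% interval -0.54 to -0.10) missed the threshold with a limma adjusted p of 0.0797. All 6 P4HB probe sets lay below 0, from -0.59 to -0.28. The gene passed the test in 1 of 17 alternative settings, with an intensity trend in the variance (limma adjusted p from 0.0467 to 0.238 over the 17).

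PDIA6, the isomerase P5 that also attenuates IRE1 and PERK signalling, read 390.1, 369.2 and 362.5 in knockdown cells and 279.8, 384.0 and 321.7 in control cells. PDIA4, the isomerase ERp72, read 386.7, 365.5 and 380.5 in knockdown cells and 322.7, 473.5 and 353.0 in control cells. In both genes control 2 was the brightest control, and in PDIA4 the brightest array of all. The log2 fold change of PDIA6 was 0.20. For PDIA4 the 95% interval of the log2 fold change was centred near 0, at -0.32 to 0.31. PDIA3, the partner of calnexin and calreticulin known as ERp57, gave -0.15, PDIA5 gave 0.20 and TXNDC11, a thioredoxin-domain protein that works with EDEM proteins, gave 0.21. The oxidases that recharge the isomerases gave -0.05 (ERO1A) and -0.15 (ERO1B). ERO1B read 35.3, 42.8 and 38.0 in knockdown cells and 46.8, 29.8 and 55.6 in control cells. As in DNAJB9, control 2 was the lowest array and the other controls were the highest, and ERO1B stood at -0.40 without control 2, where it passed the test. PDIA6 passed without control 2 as well, in the other direction (0.32).

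Of the 3 sensors and XBP1, 0 passed the limma test, 2 had an unadjusted p under 0.05, and the 4 genes did not lean one way. The median log2 fold change was -0.14. ERN1, the sensor kinase and RNase IRE1, was dim, at 3.2, 3.6 and 3.2 in knockdown cells and 3.1, 3.0 and 3.3 in control cells. That is near the lower quartile of gene means (3.06), where RMA compresses fold changes, and its log2 fold change was 0.10 (SE 0.09).

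EIF2AK3, the sensor kinase PERK, read 28.0, 34.0 and 32.3 in knockdown cells and 24.8, 28.9 and 24.1 in control cells. Only control 2 reached above the lowest knockdown array. Its log2 fold change was 0.28 ± 0.11 (SE, 95% interval 0.03 to 0.53, limma adjusted p = 0.168). All 3 EIF2AK3 probe sets lay above 0, from 0.05 to 0.53. ATF6, the membrane-bound transcription factor, read 40.3, 33.6 and 36.6 in knockdown cells and 55.3, 33.3 and 60.0 in control cells. Controls 1 and 3 lay above every knockdown array, and control 2 lay below them. Against the controls ATF6 stood at -0.38 ± 0.20 in log2 (SE, 95% interval -0.85 to 0.08, limma adjusted p = 0.31), and all 3 ATF6 probe sets lay below 0, from -0.53 to -0.37. Without control 2 both passed the test in opposite directions, EIF2AK3 at 0.36 and ATF6 at -0.65.

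XBP1, the transcription factor whose mRNA IRE1 splices, read 38.3, 41.5 and 41.7 in knockdown cells and 89.7, 42.7 and 74.9 in control cells. All knockdown arrays lay below all controls, but control 2 exceeded the brightest of them only slightly. XBP1 averaged 40.5 ± 1.9 in knockdown cells and 69.1 ± 24.0 in control cells (SD, n = 3 each). In log2, XBP1 stood at -0.70 ± 0.24 (SE, 95% interval -1.25 to -0.16), with a limma adjusted p of 0.115. Taken against each control alone, the knockdown mean differed by -1.15 from control 1, -0.08 from control 2 and -0.89 from control 3. XBP1 passed the test without control 2, at -1.02. The probe set is annotated to the gene and not to the spliced or unspliced form, so splicing by IRE1 was not measured.

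Among the 9 ERAD genes 0 rose and 0 fell by limma, with a median log2 fold change of -0.01. An unadjusted limma p under 0.05 was reached by 3 of the 9 (33.3%), against 23.5% of all genes. HERPUD1, a membrane protein that organises the HRD1 ubiquitin ligase complex, had the largest difference of the set in either direction. It read 70.5, 75.5 and 71.1 in knockdown cells and 164.1, 70.6 and 182.0 in control cells. Control 2 lay among the knockdown arrays, while controls 1 and 3 were more than 2-fold above them. HERPUD1 averaged 72.4 ± 2.8 in knockdown cells and 138.9 ± 59.8 in control cells (SD, n = 3 each). The log2 fold change was -0.83 ± 0.31 (SE, 95% interval -1.53 to -0.12), with a limma adjusted p of 0.151. The knockdown mean differed by -1.18 from control 1, 0.04 from control 2 and -1.33 from control 3.

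A second HERPUD1 probe set read 63.4, 67.4 and 62.0 in knockdown cells and 144.2, 63.2 and 161.3 in control cells. A further one read 62.5, 59.1 and 58.1 in knockdown cells and 132.8, 55 and 139.7 in control cells. The split of the control arrays was thus read by 3 probe sets of HERPUD1, and the remaining one was dim, at 2.7 or less in every array. HERPUD1 passed the test without control 2, at -1.26, and its log2 fold change lay between -1.26 and -0.57 over 17 alternative settings.

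SEL1L, the adaptor that brings substrates to the ubiquitin ligase HRD1, followed the same order of arrays on a smaller scale. It read 81.7, 89.1 and 89.0 in knockdown cells and 112.4, 87.7 and 127.4 in control cells, a log2 fold change of -0.32 ± 0.13 (SE, limma adjusted p = 0.201). SYVN1, which encodes HRD1 itself, read 59.3, 57.0 and 59.0 in knockdown cells and 54.0, 50.8 and 56.5 in control cells. All knockdown arrays lay above all controls, yet the log2 fold change was 0.12 with a 95% interval of -0.06 to 0.30. Of the components of one ligase complex, HERPUD1 and SEL1L therefore had values below 0 and SYVN1 a value above it, and none passed the test.

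The EDEM proteins are mannosidase-like factors that mark glycoproteins for disposal. EDEM2 read 29.4, 27.3 and 26.8 in knockdown cells and 16.6, 21.0 and 24.4 in control cells. All knockdown arrays lay above all controls, which themselves spread widely. In log2, EDEM2 stood at 0.45 ± 0.14 (SE, 95% interval 0.13 to 0.76), with a limma adjusted p of 0.0899, and the other EDEM2 probe set gave 0.03. EDEM1 and EDEM3 gave 0.16 and -0.02. The derlins, membrane proteins through which substrates leave the ER, gave -0.06 (DERL1), 0.09 (DERL2) and -0.01 (DERL3), and DERL3 was dim, at 3.7 to 4.6 over all arrays. DERL2 read 135.5, 138.2 and 134.0 in knockdown cells and 127.1, 124.3 and 132.2 in control cells, without overlap, but its 95% interval of -0.08 to 0.26 includes 0.

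Both measured subunits of the SEC61 channel, through which chains enter the ER, had small values, and neither passed the limma test or had an unadjusted p under 0.05. SEC61B read 690.9, 656.7 and 683.7 in knockdown cells and 582.2, 642.6 and 585.0 in control cells, all knockdown arrays above all controls. The log2 fold change was 0.17 ± 0.08 (SE, 95% interval -0.02 to 0.35, limma adjusted p = 0.262). SEC61A1, the pore subunit, read 198.3, 175.7 and 178.1 in knockdown cells and 196.6, 211.5 and 208.6 in control cells. Its log2 fold change was -0.16 (95% interval -0.36 to 0.03), and the first knockdown array exceeded control 1.

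**Figure D3:**
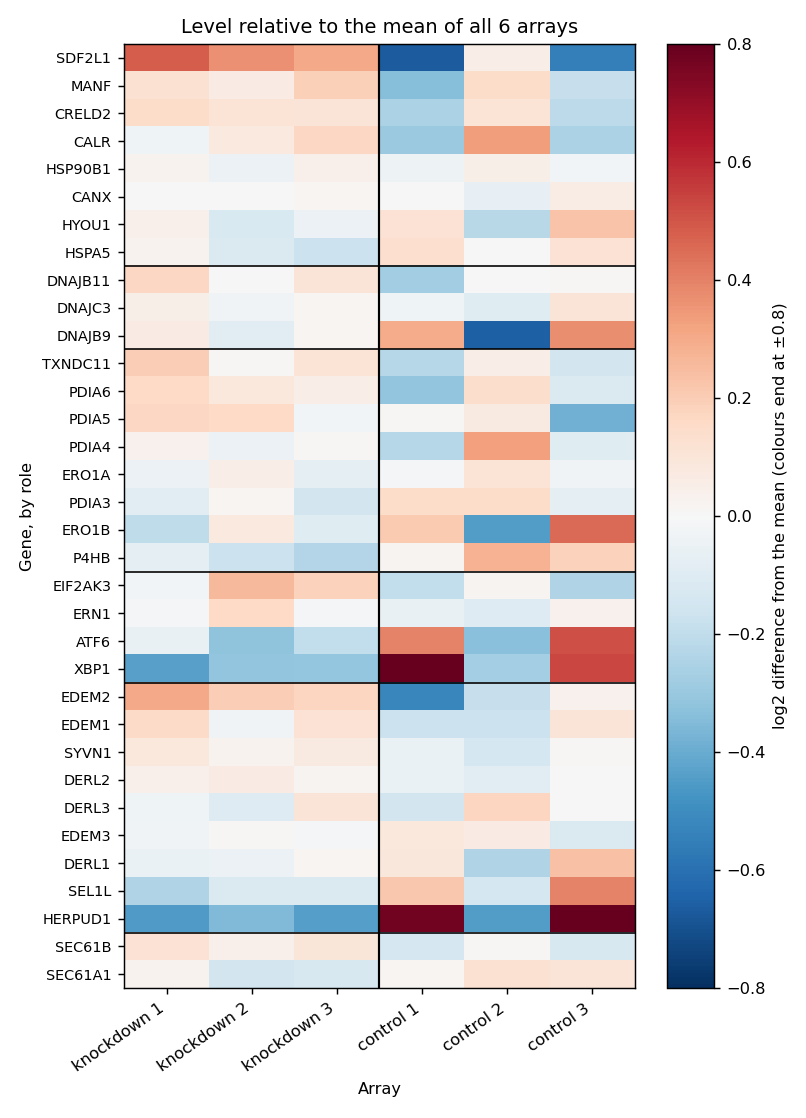
Level of the 34 measured genes in each array, as the log2 difference from the gene's mean over all 6 arrays, with knockdown columns left of control columns and genes grouped by role. Controls 1 and 3 stand apart from control 2 in HERPUD1, XBP1, ATF6 and DNAJB9 (higher) and in SDF2L1, CALR and PDIA4 (lower), while the knockdown columns differ less among themselves.

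The control arrays, rather than the knockdown arrays, carried most of the spread of these genes. The range of the 3 controls was wider than that of the 3 knockdown arrays in 30 of 34 genes (88.2%), against 65.8% of all genes. Its median was 0.15 on the log2 scale in knockdown cells and 0.30 in control cells, against 0.17 and 0.25 over all genes. Control 2 lay outside the other controls in 30 of 34 genes (88.2%, against 73.1% of all genes). The control nearest to the knockdown mean was control 2 in 44.1% of the set, control 3 in 32.4% and control 1 in 23.5%, close to the 45.2%, 28.9% and 25.9% of all genes. The median log2 difference of the set was 0.07 against control 1, 0.04 against control 2 and 0.02 against control 3, and that of all genes was 0.01, 0.02 and 0.01. A median near 0 over genes that lie on both sides of it does not show stability, and the roles differed. The median of the chaperones and lectins was 0.21 against control 1, -0.01 against control 2 and 0.17 against control 3, and that of the sensors with XBP1 was -0.24, 0.13 and -0.34.

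Without control 2, 6 of the 34 genes rose (SDF2L1, MANF, CRELD2, CALR, EIF2AK3 and PDIA6; 17.6%) and 6 fell (HERPUD1, XBP1, ATF6, SEL1L, ERO1B and DNAJB9; 17.6%). The same fit called 20.6% of all genes, 10.5% higher and 10.1% lower. The 6 that rose ran from 0.32 for PDIA6 to 0.99 for SDF2L1, and the 6 that fell from -0.34 for DNAJB9 to -1.26 for HERPUD1. In that fit the spread among controls comes from controls 1 and 3 alone, which lay close together. Leaving out the control most like the knockdown arrays tends to widen differences and narrow the control spread. The p-values of that fit are therefore not to be taken at face value. Without any other array, 0 of the 34 were called by limma, with 3 to 5 at an unadjusted p under 0.05. Of all genes, 2.88% were called when control 1 was dropped and 3.12% when control 3 was. Dropping knockdown 1, 2 or 3 left 1.79%, 2.05% and 2.16% of all genes called. Weighting the arrays by their agreement, in place of leaving one out, called 7 of the 34 (ATF6, CRELD2, EDEM2, HERPUD1, SDF2L1, SEL1L and XBP1), against 17.1% of all genes. An intensity trend in the variance called 2 (8.76% of all genes) and log2(intensity + 16) called 0 (6.78% of all genes). The sources used here do not say how control 2 differed in handling, and its part in these values beyond its removal was not tested.

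Genes with an ERSE or ERSE-II in the window did not move as one. Of the 11, all measured, 6 had a log2 fold change above 0 and 5 below, with a median of 0.01 and the ends of the whole set at its ends, SDF2L1 (0.77) and HERPUD1 (-0.83). SDF2L1 and HERPUD1 both carry ERSE-II. Of the 20 other measured genes with a window, 12 lay above 0 and 8 below, with a median of 0.10 and a range of -0.38 to 0.45. Without control 2 the limma test called 7 of the 11 and 5 of the 20, against 20.6% of all genes. Both directions were seen in each group. These counts describe the 31 genes and were not tested.

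The wider pathway, with the heat shock proteins of other compartments, was read from 146 listed genes outside the set. Of these, 142 were measured, 7 rose and 8 fell, while 3.70% of all genes rose and 4.13% fell. When an array other than control 2 was left out, at most 3 of the 142 were called, against 1.79% to 3.12% of all genes. Of the 37 other ER folding factors, all measured, 0 rose and 4 fell, with a median log2 fold change of 0.00. HSPA13, an Hsp70-type ATPase of microsomes also known as STCH, read 98.8, 109.9 and 112.3 in knockdown cells and 235.4, 160.6 and 233.1 in control cells. Every knockdown array lay below every control, control 2 included. HSPA13 fell by 0.95 on the log2 scale (SE 0.15, limma adjusted p = 0.0101), and the call held in 4 of 6 fits that left out 1 array. With the mean of its probe sets HSPA13 stood at -0.56 and was still called. FKBP9 (-1.41), TMX4 (-0.36) and FKBP10 (-0.35) also fell. FKBP9 was dim in knockdown cells (5.3 to 6.0), and its value was -0.44 with the mean of its 7 probe sets, where it was called, and -0.55 with log2(intensity + 16), where it was not. TMX4 was not called with the mean of its probe sets (-0.21), and FKBP10 was called in 9 of 17 alternative settings. FKBP9 and FKBP10 are peptidyl-prolyl isomerases and TMX4 is a membrane-bound thioredoxin-like protein. The largest positive values, 0.28 for SDF2 and PPIB, did not pass.

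As above, 3.70% of all genes rose and 4.13% fell. Of 32 other ERAD factors measured, 1 rose and 0 fell, with a median log2 fold change of 0.05. UFD1, the cofactor with which the ATPase VCP pulls substrates from the membrane, read 143.8, 138.2 and 136.5 in knockdown cells and 80.6, 105.9 and 89.1 in control cells. It rose by 0.61 (SE 0.11, limma adjusted p = 0.0156), without overlap between the groups. The lowest value, FAM8A1 at -0.38, did not pass. These counts rest on the brightest probe set of each gene. When every probe set was tested, UBE2J1, NGLY1 and BCAP31 each had 1 called. TMX3, UGGT2 and SPCS3 of the neighbouring lists, also not called above, had called probe sets as well. Of 21 other translocation and signal peptidase genes, 1 rose, the signal peptidase subunit SEC11C (0.42, SE 0.10, limma adjusted p = 0.041), and 0 fell. Their median was 0.07, and SEC63, a J-domain partner of the channel, had the lowest value at -0.42 and did not pass. Of 19 other regulators measured, 2 rose and 2 fell. CREB3 (0.48) and CREB3L2 (0.45) encode ER or Golgi membrane-bound transcription factors and rose, whereas CREBZF (-0.61) and KDELR3 (-0.72), a receptor that returns proteins to the ER, fell. Several of these calls depended on the choice of probe set. CREB3L2 stood at 0.14 with the mean of its probe sets and 0.17 without those ending in _x_at or _s_at, and CREBZF at -0.25 and -0.29, with no call in either. KDELR3 was not called with the mean of its probe sets (-0.49), and CREB3, with 1 probe set, was called in 8 of 17 alternative settings.

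The values of the ATF4 branch, a list that leaves out PERK itself (EIF2AK3, 0.28), all lay on one side of 0. PERK activity was not measured, and whether PERK set the values of these genes was not tested. Of the 19 genes of the branch, 0 rose and 2 fell, PHGDH (-1.28) and SHMT2 (-1.01), enzymes of serine and glycine synthesis. Over all genes 3.70% rose and 4.13% fell. All 19 had log2 fold changes below 0, whereas 52.7% of all genes lay above 0. The median of the 19 was -1.02, and the smallest change was that of STC2 (-0.48). ATF4 read 737.1, 759.5 and 738.7 in knockdown cells and 1328, 816.9 and 1345 in control cells, a log2 fold change of -0.61 (limma adjusted p = 0.0807). DDIT3, the stress-induced factor CHOP, read 8.9, 8.0 and 9.5 in knockdown cells and 89.4, 8.6 and 102.2 in control cells. ASNS, asparagine synthetase, read 222.2, 238.4 and 238.2 in knockdown cells and 1427, 320.6 and 1562 in control cells. In these genes, as in HERPUD1 and XBP1, control 2 lay with or near the knockdown arrays. The median of the branch was -1.46 against control 1, -0.19 against control 2 and -1.43 against control 3. All 19 fell without control 2, against 10.1% of all genes. The most negative value was that of NUPR1 (-3.04), which did not pass with all arrays.

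Of the 14 heat shock proteins of the cytosol and mitochondria measured, 3 rose and 0 fell, against 3.70% and 4.13% of all genes. The median log2 fold change of the 14 was 0.48. Values above 0 were seen in 12 and below 0 in 2 (85.7% above 0, against 52.7% of all genes). Both below 0 are mitochondrial, HSPA9 (-0.23) and TRAP1 (-0.25), while the mitochondrial HSPD1 (0.27) and HSPE1 (0.56) lay above. HSPA8, the constitutive cytosolic Hsp70, read 3616, 3572 and 3417 in knockdown cells and 1016, 2584 and 1078 in control cells, and rose by 1.32 (SE 0.31, limma adjusted p = 0.0398). Its J-domain partners DNAJA1 (0.84) and DNAJB1 (0.72) rose as well. HSPA8 and DNAJB1 were not called with the mean of their probe sets (0.97 and 0.60). The largest value, 1.67 for HSPA1B, and the lowest, that of TRAP1, did not pass. The median of this list was 0.74 against control 1, 0.09 against control 2 and 0.72 against control 3. Without control 2, 12 of the 14 rose and 2 fell, against 10.5% and 10.1% of all genes. The 8 ER chaperones and lectins also had their lowest median against control 2, at a smaller size, with 6 of 8 above 0 and medians of 0.21, -0.01 and 0.17 against controls 1, 2 and 3. Without control 2, 4 of the 8 rose and 0 fell, against 10.5% and 10.1% of all genes. The difference between the lists was not tested.

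**Figure D4:**
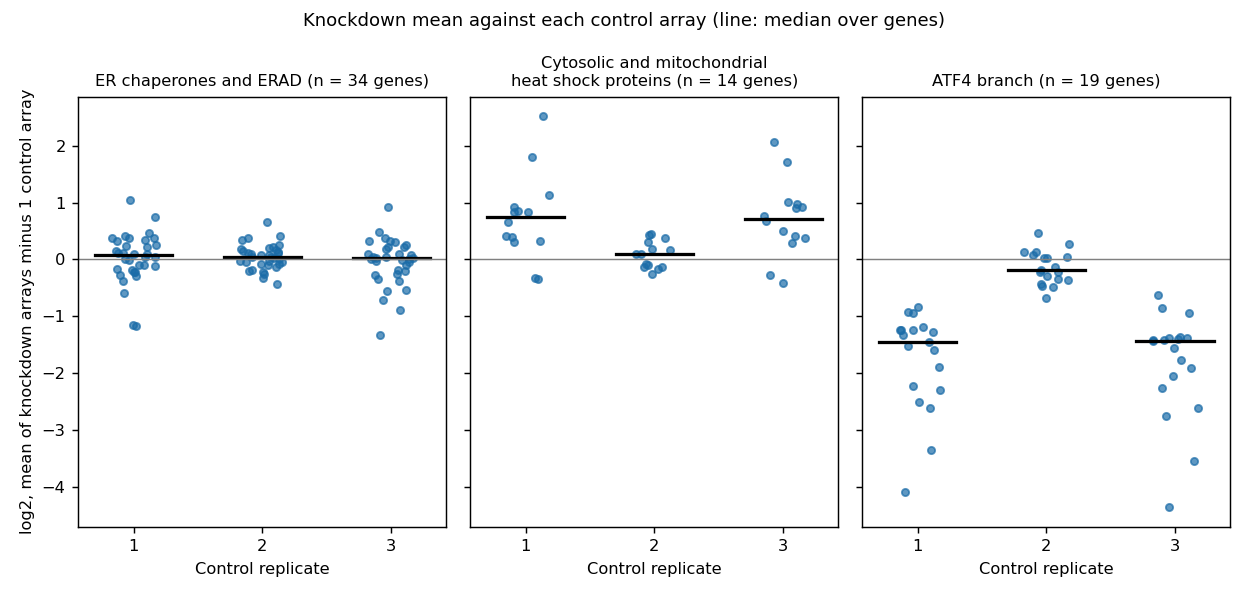
Log2 difference between the mean of the 3 knockdown arrays and each control array alone (x axis, control replicate), with 1 point for each gene and a line at the median, for the 34 genes of the set, 14 heat shock proteins and 19 genes of the ATF4 branch. The set's medians stay at 0.07, 0.04 and 0.02 against controls 1, 2 and 3, whereas those of the heat shock proteins are 0.74, 0.09 and 0.72 and those of the ATF4 branch -1.46, -0.19 and -1.43.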

How the data were processed

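Total RNA of 3 knockdown and 3 control cultures of A375 cells was read on Affymetrix arrays. Per the submitters' processing notes, the authors used RMA, and what they deposited are linear intensities, one for each probe set (1.55 to 6658). RMA corrects background and normalizes quantiles, and fold changes of dim probe sets come out compressed. Array medians lay between 4.85 and 4.94. The number of arrays limits the precision. The array annotation named 1 gene symbol for 44988 of 49293 probe sets, several for 1832 and none for 2473. Only those with 1 symbol were used, with the highest mean log2 intensity over the 6 arrays choosing 1 probe set for each of 18132 genes.

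Log2 intensities were compared by limma 3.58.1 (R 4.3.3, lmFit and eBayes), with Benjamini-Hochberg adjustment over all genes at 0.05 and no pseudocount or filter. Tables and figures were made with Python 3.11.15, pandas 2.3.3 and matplotlib 3.10.9, and the fit was tested on simulated data. The genes and lists, which come from general knowledge, were chosen with earlier results of these data known. By rule, levels in each array are given for genes of the set past the test, those at least 0.5 from 0 in log2 fold change, the sensors, XBP1 and HSPA5. Those of further genes of the set were added after their values were seen. Of the other lists, genes past the test and the largest positive and negative values are named, with ATF4, DDIT3 and ASNS. Same-numbered arrays of the groups did not deviate together (r = -0.079, 0.022 and 0.06 over genes), and the main fit took them as unpaired. With 3 arrays a group and unlike controls, this check cannot exclude a weak pairing. As alternatives, the fit was repeated with a replicate block, with array weights, with an intensity trend, with 2 normalizations, with 2 filters on dim genes, with other uses of the probe sets, on log2(intensity + 16) and without each array. TRAF2, KDELR2, HSPA1A and the marker DCT were among the listed genes not analysed here.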

Additional observations from a re-analysis of the deposited data

How the results depend on the processing

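The count of set genes called, 1 with all arrays, was 0 with log2(intensity + 16), 2 with an intensity trend, 7 with array weights and 0 to 12 when 1 array was left out, the 12 coming without control 2. The count over all genes, 1420, was 3103 with array weights (17.1%) and 324 to 3732 without 1 array, the 3732 again without control 2. The count in the other lists, 15, was 27 with an intensity trend, 56 with array weights, 9 when probe sets whose IDs end in _x_at or _s_at were dropped and 0 to 62 without 1 array. Array weights gave control 2 a weight of 0.34, against 0.97 to 1.5 for the others. With the replicate number as a block the counts were 1 in the set, 18 in the other lists and 1188 over all genes, and TMX4, FKBP10, SEC11C and CREB3 were not called (limma adjusted p from 0.0655 to 0.0779), while ASNS, HSPA1B and NUPR1 were (0.0339 to 0.0425). The other settings left these counts within 1.5 times, and MAP4K5 was called in all 17 alternatives.

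Direction turned in 10 genes of the set whose log2 fold change with all arrays lay near 0. With array weights the values were -0.01 for CANX, 0.03 for DERL3, -0.01 for DNAJC3 and 0.09 for PDIA4. With arrays shifted to a common median they were 0.00 for DERL3, 0.01 for DNAJB9 and 0.02 for PDIA4, and with repeated quantile normalization -0.06 for CANX and -0.08 for HSP90B1. The mean of the probe sets gave 0.08 for DERL3, 0.01 for DNAJB9, -0.08 for DNAJC3 and -0.04 for HSP90B1. When the _x_at and _s_at probe sets were dropped, the values were -0.01 for CANX, 0.07 for DERL1, 0.09 for DERL3 and -0.02 for HSP90B1. Without 1 array they ran from -0.02 to 0.04 for CANX, -0.19 to 0.05 for DERL1, -0.09 to 0.07 for DERL3, -0.34 to 0.17 for DNAJB9, -0.03 to 0.08 for DNAJC3, -0.09 to 0.01 for EDEM3, -0.40 to 0.05 for ERO1B, -0.01 to 0.04 for HSP90B1, -0.21 to 0.01 for HYOU1 and -0.12 to 0.16 for PDIA4. The causes were not tested. With 3 arrays a group and controls that differ among themselves, single differences of the size seen in most of these genes are not resolved.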
